A study of Mus musculus with 9 samples.

Results

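Activator protein 1 (AP-1) is a pair of basic leucine zipper proteins bound to each other and to DNA, and the genes described here are 10 that encode its subunits and close relatives: the FOS genes Fos, Fosb, Fosl1 and Fosl2, the JUN genes Jun, Junb and Jund, and the related Atf3, Batf3 and Maff. They were taken by name from a table of gene counts for mouse brain, and all 10 were among its 18138 genes. RNA was sequenced from 9 libraries, 3 per group. The first group is labelled control. The second, MCAO, had surgery for middle cerebral artery occlusion, a model of ischaemic stroke in which an artery that feeds much of a hemisphere is blocked. The third had MCAO surgery and then hypidone hydrochloride (YL-0919) at 5 mg/kg, continuously for 7 days. The tissue is labelled brain in all groups. The sources used here do not give the brain region, the hemisphere, any sham surgery or vehicle, the time of sampling after surgery, or the strain, age and sex. Libraries are named by the group and the number in their title (control 4, 5 and 6, MCAO 4, 5 and 6, hypidone 2, 7 and 8). The labels do not say that these are separate animals, so each p-value measures the spread between samples, which may be technical.

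FOS proteins do not pair with each other and form AP-1 with a JUN partner, whereas JUN proteins can also pair among themselves. Fos, Fosb and Junb are immediate early genes: in neurons, calcium entry and kinase signalling switch them on within minutes through factors that are already bound to their promoters, and their mRNAs are short-lived. Jund is transcribed at a steady level in most tissues. Atf3 is induced by cell stress and, with Jun, in neurons whose axons are cut. Maff encodes a small MAF protein, which has no activation domain of its own and pairs with FOS, NRF2 or BACH proteins.

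The 250 bases before the transcription start were read from RefSeq promoters (GRCm38.p6), which held 9 of the 10 members. Fosl1 had no entry. The promoters of Fos, Fosb and Junb are shown because these 3 genes followed each other from library to library, and those of Atf3 and Maff because these 2 genes were the members called between groups. Capitals mark matches to TGACG, the core of the cyclic AMP response element, on either strand (CGTCA on the strand shown is TGACG on the other). The places are Fos, chr12:85473640-85473889 on the plus strand, Fosb, chr7:19310046-19310295 on the minus strand, Junb, chr8:84978749-84978998 on the minus strand, Atf3, chr1:191183334-191183583 on the minus strand, and Maff, chr15:79346371-79346620 on the plus strand. The Atf3 start used by RefSeq lies inside the longer gene of the GENCODE M21 annotation, as do the windows of Fosl2 and Batf3 inside theirs. The Jund window ends at 70697738 on chromosome 8, before the GENCODE gene start at 70698949, so it does not adjoin that start. On the minus strand, the Junb window ends at 84978749, short of the GENCODE gene start at 84978718. The Fosb window ends at 19310046, a few bases inside the gene, which starts at 19310051.
Fos: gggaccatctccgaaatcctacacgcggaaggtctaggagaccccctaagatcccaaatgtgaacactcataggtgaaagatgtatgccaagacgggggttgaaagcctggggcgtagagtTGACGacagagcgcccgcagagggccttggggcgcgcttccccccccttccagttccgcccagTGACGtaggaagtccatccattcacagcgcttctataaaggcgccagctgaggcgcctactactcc
Fosb: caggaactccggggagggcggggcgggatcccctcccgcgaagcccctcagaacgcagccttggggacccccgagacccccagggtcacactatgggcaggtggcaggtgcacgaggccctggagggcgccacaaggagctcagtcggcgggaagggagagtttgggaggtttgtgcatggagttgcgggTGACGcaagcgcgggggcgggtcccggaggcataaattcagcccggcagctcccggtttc
Junb: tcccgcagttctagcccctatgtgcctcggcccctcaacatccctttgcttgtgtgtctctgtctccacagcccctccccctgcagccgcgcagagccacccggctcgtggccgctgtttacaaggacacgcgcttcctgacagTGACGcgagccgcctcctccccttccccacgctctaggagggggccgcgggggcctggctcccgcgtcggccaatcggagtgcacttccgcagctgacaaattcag
Atf3: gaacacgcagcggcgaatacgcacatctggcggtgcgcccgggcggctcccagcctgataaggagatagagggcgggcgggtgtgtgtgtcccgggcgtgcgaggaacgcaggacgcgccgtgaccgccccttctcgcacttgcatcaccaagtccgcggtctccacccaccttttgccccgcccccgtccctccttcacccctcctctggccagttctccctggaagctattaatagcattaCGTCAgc
Maff: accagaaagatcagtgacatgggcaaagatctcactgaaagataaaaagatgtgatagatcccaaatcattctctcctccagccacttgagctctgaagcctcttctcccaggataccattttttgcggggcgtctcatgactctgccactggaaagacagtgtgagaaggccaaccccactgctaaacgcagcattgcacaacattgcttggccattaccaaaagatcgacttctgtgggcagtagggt
Counting back from the start, with -1 the base before it, TGACG lay at -129 to -125 and -66 to -62 in Fos. It lay at -60 to -56 in Fosb, at -106 to -102 in Junb and, on the other strand, at -7 to -3 in Atf3. Of 32851 RefSeq promoters of the same length, 17.8% held TGACG on at least 1 strand. Both strands were also searched for TGACNTCA, of which a match with G for N also contains TGACG, for the AP-1 site TGANTCA and for the CArG box of serum response factor. These were held by 7.49%, 6.75% and 1.47% of the 32851 promoters. Among the members, 1 match was found within the 250 bases, TGACATCA at -45 to -38 in Jun. Sites further upstream were not searched, so a promoter without a match here may hold one there. The windows of Fosl2, Jund, Batf3 and Maff had no match to any of the 4 patterns. The patterns were chosen after some of these sequences were seen, and a match is a description of letters, not of binding.

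Libraries held between 32075682 (control 4) and 37325027 (MCAO 4) gene counts. Levels of 1 gene across libraries are given in CPM (a gene's counts relative to its library's TMM-scaled total), and levels between genes in the deposited FPKM, which also divides by gene length. The MCAO libraries differed from each other in lists of cell type markers, given as summed CPM. Summed levels of 10 macrophage markers were 33.4, 1864 and 185 CPM in MCAO 4, 5 and 6, against 19.0 to 23.2 in controls and 35.8 to 125.1 with hypidone. Neuron markers (10 genes) stood at 10700, 5683 and 7853 CPM in MCAO 4, 5 and 6, against 8082 to 12550 in controls and 10940 to 12210 with hypidone. Astrocyte markers (10 genes) reached 5697, 8032 and 10020 CPM in MCAO 4, 5 and 6, against 5293 to 6279 in controls and 5770 to 6412 with hypidone. In microglia markers (10 genes) the MCAO libraries held 506, 1598 and 832.8 CPM, against 475.7 to 514.7 in controls and 511.7 to 611.9 with hypidone. With MCAO against control, 4 macrophage, 2 microglia, 2 astrocyte and 3 endothelium markers of 10 each were called higher. So was 1 of 5 tested neutrophil markers. Called lower were 1 neuron, 2 oligodendrocyte and 1 endothelium markers of 10 each. So were 2 of 7 tested hippocampus markers and 1 of 5 tested choroid plexus markers. Over all tested genes, 10.6% were called higher and 9.81% lower in this comparison. With hypidone against MCAO, 2 astrocyte, 2 microglia, 1 macrophage and 1 endothelium markers were called lower. Called higher were 2 neuron, 1 microglia, 1 oligodendrocyte and 1 endothelium markers and all 5 red cell markers. Here the shares over all tested genes were 8.23% higher and 8.28% lower. Control 5 also stood apart, with 867.4 CPM of hippocampus markers (253.3 to 397.8 elsewhere) and 194.3 CPM of choroid plexus markers (1.38 to 13.96 elsewhere). It held 7396 CPM of oligodendrocyte markers, against 2796 to 4682 elsewhere. Its neuron markers, at 8082 CPM, set the low end of the control range, with controls 4 and 6 at 12530 and 12550 CPM. No marker of any list was at 0 in all libraries. In bulk RNA, fewer cells of a type and less RNA per cell cannot be told apart. The part of these differences in the results below was not tested.

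On the per-length FPKM scale, Junb and Jund were the most abundant members of the control brain and Fosl1 the least. Mean FPKM in controls was 48.9 ± 13.4 for Junb, 39.4 ± 3.02 for Jund, 25.5 ± 13.5 for Fos and 22.7 ± 12.6 for Jun (SD, n = 3). It was 5.55 ± 2.34 for Fosl2 and 4.70 ± 0.0989 for Fosb. Atf3 at 0.655 ± 0.155, Batf3 at 0.616 ± 0.518, Maff at 0.386 ± 0.0794 and Fosl1 at 0.0291 ± 0.0113 came last. In that order, Junb and Jund, Fos and Jun, Fosl2 and Fosb, Atf3 and Batf3, and Batf3 and Maff are neighbours whose means differed by less than the larger SD of the pair.

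The make-up of the family differed most among the MCAO libraries. The 10 members summed to 101.9 FPKM in MCAO 4, 112.4 in MCAO 5 and 399.5 in MCAO 6. The sums were 136.3 to 170.6 in controls and 135.4 to 210.3 with hypidone. Junb was the top member in 2 of 3 controls and in all 3 hypidone libraries, Jun in control 5, Jund in MCAO 4 and MCAO 5, and Fos in MCAO 6. The ratio of summed FOS to summed JUN FPKM was 0.125, 0.186 and 0.849 in MCAO 4, 5 and 6, against 0.22 to 0.387 in controls and 0.318 to 0.538 with hypidone. MCAO 4 and 5 thus had the lowest ratios of the 9 libraries and MCAO 6 the highest. Atf3 made up 2.22% to 6.11% of the members' FPKM in the MCAO libraries and at most 0.609% in any other. For Maff the shares were 2.2% to 3.46% with MCAO and at most 0.489% elsewhere.

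**Figure D1:**
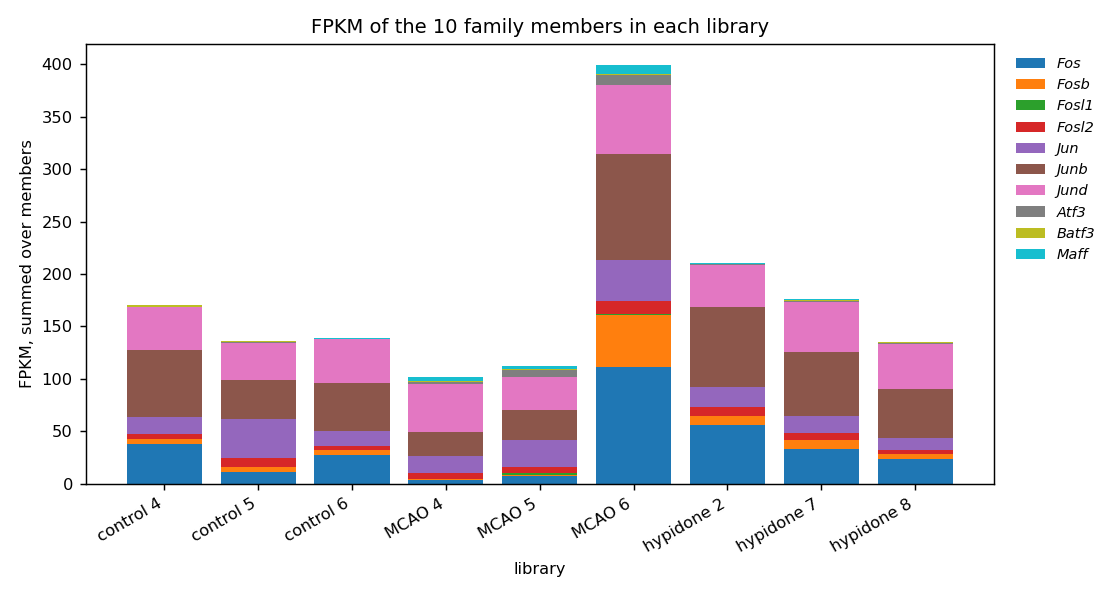
Stacked bars of FPKM (vertical axis, per-length level) of the 10 members in each of the 9 libraries (horizontal axis), 1 colour per gene. MCAO 6 reaches 399.5 FPKM in all, and MCAO 4 and MCAO 5 are the lowest at 101.9 and 112.4.

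The first comparison, MCAO against control, asks how the family stood after stroke surgery. Atf3 and Maff rose and were the only members called, where called means an adjusted p under 0.05 in edgeR's quasi-likelihood test of 14756 genes. Atf3, the stress-induced factor that can bind DNA with JUN, stood at 1.21, 1.63 and 1.08 CPM in controls 4, 5 and 6 and at 4.75, 12.6 and 19.1 CPM in MCAO 4, 5 and 6. All 3 MCAO libraries were above all 3 controls. The means were 1.31 ± 0.29 and 12.2 ± 7.19 CPM (SD, n = 3), 9.25-fold apart by the fit, with a log2 fold change of 3.21 ± 0.51 (SE) and an edgeR adjusted p of 0.00619. Maff, the small MAF gene, stood at 1.5, 1.36 and 0.99 CPM in controls and 12.3, 9.40 and 28.0 CPM in MCAO 4, 5 and 6. Its groups did not overlap either, with means of 1.28 ± 0.26 and 16.6 ± 9.98 CPM. It was 12.9-fold higher with MCAO (log2 fold change 3.69 ± 0.43, edgeR adjusted p = 0.00282).

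Of the 9 members tested, 2 were called higher and 0 lower, where 10.6% of all tested genes were called higher and 9.81% lower. The same 2 were the members whose CPM ranges lay wholly above those of control, which held for 16.5% of all tested genes. The median log2 fold change of the 9 members was 0.53, against 0.011 over all tested genes. With limma's voom and library quality weights, which give less weight to libraries that vary more, 6 members were called higher, adding Fosb, Fosl2, Jun and Jund to Atf3 and Maff. In the authors' deposited table the fold was 9.26 for Atf3 (q = 2.862e-07) and 12.9 for Maff (q = 1.422e-11). Fosl1 was also past 0.05 in the authors' deposited table, with a fold of 23.4 (q = 0.0131).

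Fos, Fosb and Junb, the activity-induced members, split the MCAO group. Fos stood at 82.2, 23.5 and 58.6 CPM in controls 4, 5 and 6, lowest in control 5, which stood apart in marker levels (above). In MCAO 4, 5 and 6 it stood at 7.25, 13.5 and 229 CPM. MCAO 4 and 5 were thus below every control and MCAO 6 above every other library, a 31.5-fold range within 1 group. The mean of 83.1 ± 126 CPM in MCAO against 54.8 ± 29.6 in controls gave a log2 fold change of 0.60 ± 1.08 (edgeR adjusted p = 0.716).

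Fosb encodes a FOS protein that also exists as the truncated and long-lived form ΔFosB; counts per gene do not separate these forms. It was even across controls, at 17.8, 17.98 and 18.1 CPM, a coefficient of variation of 0.839%. In MCAO 4, 5 and 6 it stood at 6.28, 6.23 and 179 CPM, with MCAO 4 and 5 close to each other and MCAO 6 28.8-fold above MCAO 5. The log2 fold change of 1.83 ± 1.1 was not called (edgeR adjusted p = 0.258). Junb, a JUN gene induced together with Fos, had 120, 67.9 and 86.4 CPM in controls and 45.0, 48.1 and 181 CPM in MCAO 4, 5 and 6. The same libraries were low and the same library high. Its group means were 91.4 ± 26.3 and 91.2 ± 77.4 CPM, with a log2 fold change of -0.0018 ± 0.50 (edgeR adjusted p = 0.999).

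**Figure D2:**
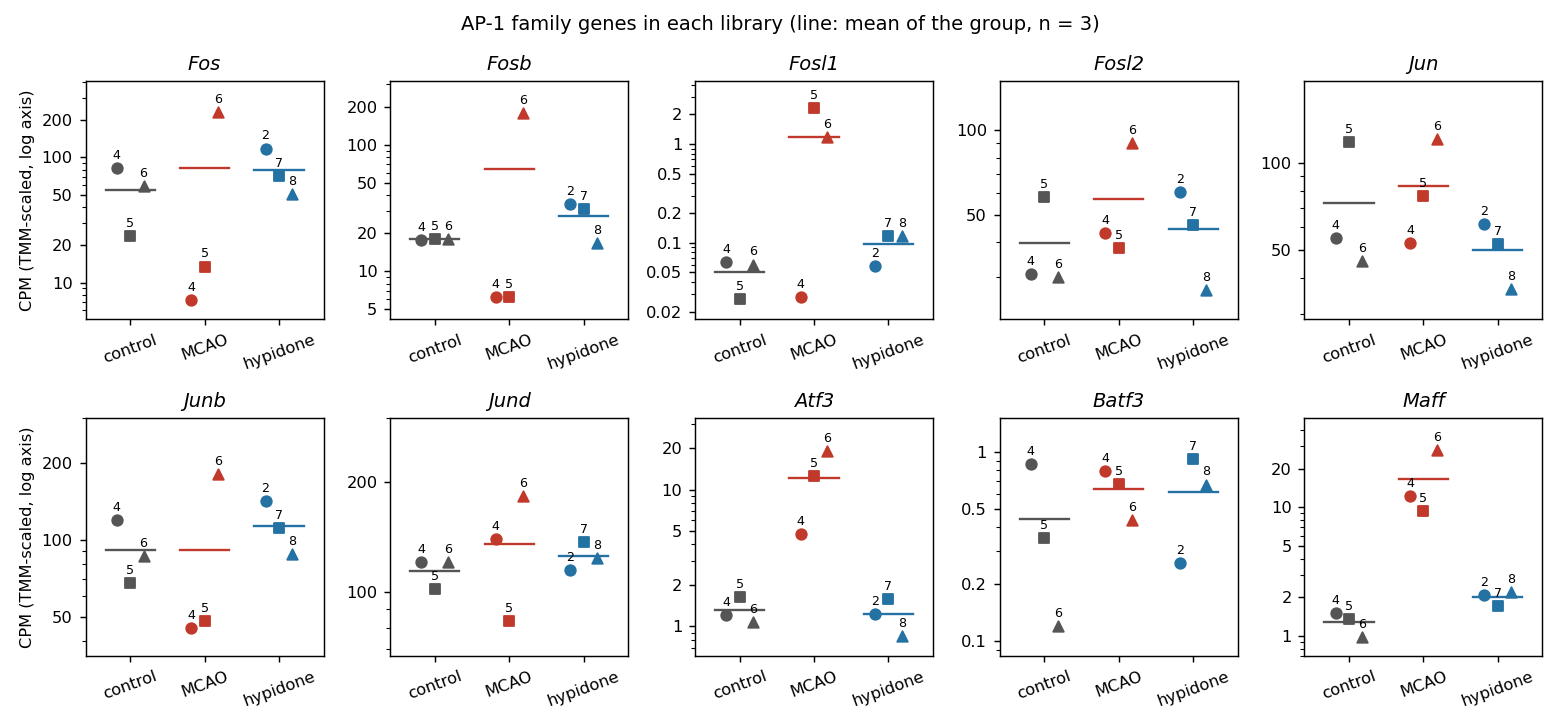
CPM on a log axis (vertical) for each member in each library (points, numbered as in the titles) by group (horizontal), with group means as lines (n = 3). Atf3 and Maff are higher in all 3 MCAO libraries, while for Fos, Fosb and Junb MCAO 4 and MCAO 5 are below all controls and MCAO 6 is the highest of 9.

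Measured as the difference from the control mean of log2 CPM (prior count 2), Fos was at -2.73, -1.84 and 2.24 in MCAO 4, 5 and 6. Fosb was at -1.51, -1.52 and 3.32 and Junb at -0.98, -0.89 and 1.02. The corresponding values for Atf3 were 1.83, 3.23 and 3.83 and for Maff 3.22, 2.84 and 4.41, all above control. Without MCAO 6, Fos and Fosb were called lower in MCAO than in control, at log2 fold changes of -2.40 (edgeR adjusted p = 0.0466) and -1.52 (edgeR adjusted p = 0.0282). Junb was then at -0.97 (edgeR adjusted p = 0.0638), while Atf3 at 2.72 and Maff at 3.08 stayed called higher. The direction for Fos and Fosb thus turned without MCAO 6, and that of Fos also with limma on FPKM (-0.61).

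**Figure D3:**
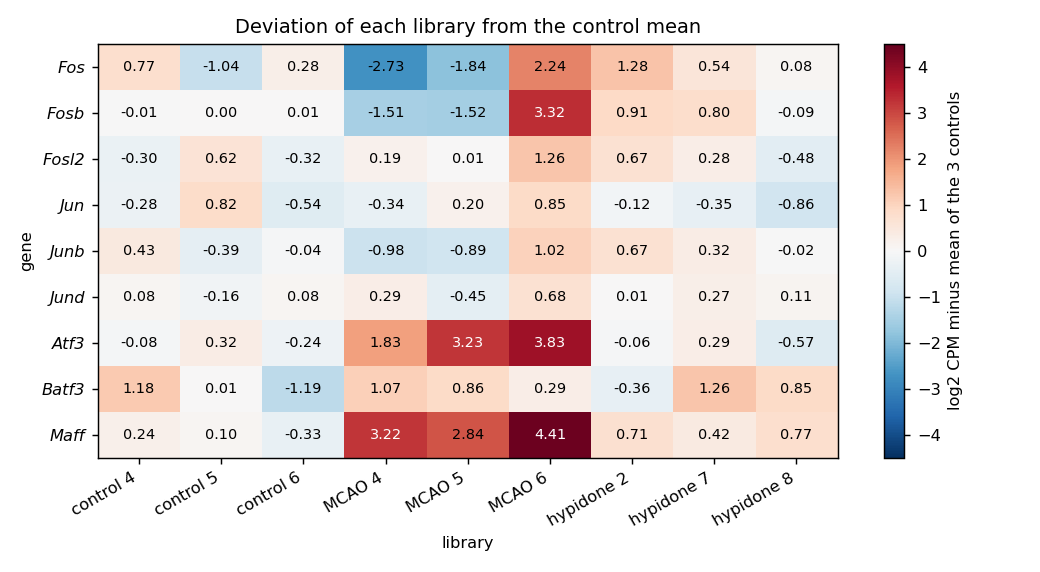
Heat map of log2 CPM minus the mean of the 3 controls (colour) for the 9 tested members (rows, without Fosl1) in 9 libraries (columns). In the MCAO columns Fos runs from -2.73 in MCAO 4 to 2.24 in MCAO 6, and Atf3 and Maff are above 0 in all 3.

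Fosl1, which encodes FRA1, a FOS protein scarce in resting tissue, was almost undetected outside 2 libraries. It had 89 counts in MCAO 5 and 43 in MCAO 6, and 1 in MCAO 4. Controls held 2, 1 and 2 counts and hypidone libraries 2, 4 and 4. In CPM this is 2.32 and 1.18 against at most 0.12 elsewhere. The filter on low counts removed the gene, so it has no value in the main test. With no filter its log2 fold change for MCAO against control was 4.45 (edgeR adjusted p = 0.0356), and it depends on the prior count used for such low counts. DESeq2 gave 4.56 (DESeq2 adjusted p = 0.00336). Fosl1 passed the filter when a control, MCAO 4 or a hypidone library was left out. In edgeR it was then called without MCAO 4 (5.04, adjusted p = 0.00237), but not without any 1 control (adjusted p = 0.0781 to 0.102) or any 1 hypidone library (adjusted p = 0.0542 to 0.0584). MCAO 5 and 6 alone carried it past the filter. Without MCAO 4 they were also the whole MCAO group, so that call adds no support. MCAO 5 and 6 also held the most macrophage and microglia marker RNA (above), whose part was not tested. An exon of Fosl1 overlaps Ccdc85b on the opposite strand, at 65.4 to 104 CPM in the 9 libraries, and the sources used here do not give the strand setting of the counting.

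Jun, Jund, Fosl2 and Batf3 overlapped between control and MCAO and were not called. Jun, the main partner of FOS proteins, had 54.9, 118 and 45.8 CPM in controls and 52.7, 76.7 and 120 CPM in MCAO 4, 5 and 6. Control 5 and MCAO 6 were the highest, at nearly the same level. The log2 fold change of 0.19 ± 0.40 (edgeR adjusted p = 0.757) became 0.72 without control 5 (edgeR adjusted p = 0.158), the control with the hippocampus and choroid plexus markers. Fosl2, which encodes FRA2, had 30.7, 58.0 and 30.1 CPM in controls and 43.1, 38.1 and 90.2 CPM with MCAO, and again control 5 was the highest control. Its log2 fold change was 0.53 ± 0.41 (edgeR adjusted p = 0.384), and 0.91 without control 5.

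Jund varied least of the 10 genes, by 2.19-fold over the 9 libraries. It had 121, 102 and 121 CPM in controls and 140, 83.5 and 183 CPM in MCAO 4, 5 and 6, with MCAO 5 the lowest and MCAO 6 the highest of all libraries. The log2 fold change was 0.24 ± 0.24 (edgeR adjusted p = 0.502), and 0.51 without MCAO 5 (edgeR adjusted p = 0.0377), which is past the threshold. Batf3, known for its part in the development of dendritic cells, was at 0.12 to 0.86 CPM in controls and 0.44 to 0.80 CPM with MCAO, from 177 counts in all 9 libraries. No difference was detectable at that depth (log2 fold change 0.52 ± 0.72, edgeR adjusted p = 0.634). Junb overlaps Prdx2 on the opposite strand, at 176 to 207 CPM in the 9 libraries, and reads of Jun and Jund could include those of antisense transcripts not separated here.

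The second comparison, hypidone after MCAO against MCAO, asks how the drug group stood relative to the group labelled with MCAO surgery only. It shares the MCAO libraries with the first comparison, so the 2 sets of values are not independent. Atf3 and Maff were lower with hypidone. Atf3 stood at 1.24, 1.59 and 0.85 CPM in hypidone 2, 7 and 8, all below the lowest MCAO library at 4.75 CPM. Its fit gave 0.101 times the MCAO level, a log2 fold change of -3.30 ± 0.51 (edgeR adjusted p = 0.00668). Maff stood at 2.10, 1.71 and 2.20 CPM, all below the lowest MCAO library at 9.40 CPM. It fell by 3.04 ± 0.42 on the log2 scale (edgeR adjusted p = 0.00549). The authors' deposited table gives folds of 0.101 for Atf3 (q = 3.248e-08) and 0.120 for Maff (q = 1.241e-09), and also 0.0832 for Fosl1 (q = 0.029).

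Of the 9 members tested, 0 were called higher and 2 lower with hypidone, where 8.23% of all tested genes were called higher and 8.28% lower. CPM ranges lay wholly below those of MCAO for the same 2 members and for 19% of all tested genes. The median log2 fold change of the members was -0.37, against -0.035 over all tested genes. Both Atf3 and Maff stayed called when any single library of the 9 was left out.

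Fos with hypidone stood at 118, 70.5 and 51.0 CPM in hypidone 2, 7 and 8, which is between MCAO 5 at 13.5 and MCAO 6 at 229. The log2 fold change of -0.06 ± 1.07 was not called (edgeR adjusted p = 0.977). Fosb, at 33.9, 31.3 and 16.8 CPM, likewise lay between MCAO 4 and 5 and MCAO 6 (log2 fold change -1.23 ± 1.08, edgeR adjusted p = 0.450). Junb was at 142, 111 and 87.6 CPM (log2 fold change 0.32 ± 0.50, edgeR adjusted p = 0.688). Without MCAO 6 these 3 were called higher with hypidone, at log2 fold changes of 2.94 for Fos (edgeR adjusted p = 0.0400), 2.12 for Fosb (edgeR adjusted p = 0.0190) and 1.28 for Junb (edgeR adjusted p = 0.0427). The sign of Fos, close to 0, also turned without hypidone 7 (0.03) or hypidone 8 (0.19).

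**Figure D4:**
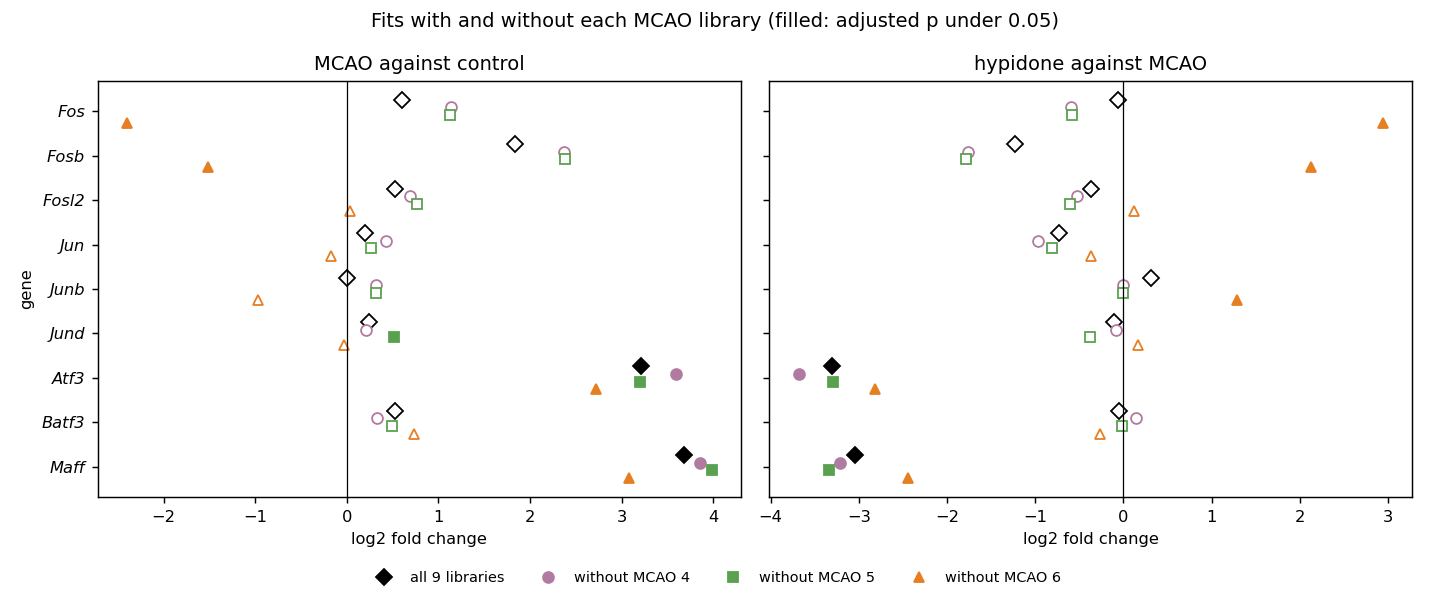
Log2 fold change (horizontal) of each tested member (vertical) with all libraries and without each MCAO library, for MCAO against control and hypidone against MCAO; filled points have an adjusted p under 0.05. Fos goes from 0.60 to -2.40 in the first comparison and from -0.06 to 2.94 in the second when MCAO 6 is left out, while Atf3 and Maff keep their side of 0 throughout.

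The remaining members did not pass the test. Jun had 61.5, 52.2 and 36.6 CPM with hypidone, the lowest group mean of the 3 at 50.1 ± 12.6 CPM (log2 fold change against MCAO -0.73 ± 0.40, edgeR adjusted p = 0.226). Fosl2 had 60.1, 45.9 and 27.0 CPM (log2 fold change -0.37 ± 0.41, edgeR adjusted p = 0.560). Jund had 115, 138 and 124 CPM (log2 fold change -0.11 ± 0.24, edgeR adjusted p = 0.779). Batf3 was at 0.26 to 0.91 CPM (log2 fold change -0.05 ± 0.71, edgeR adjusted p = 0.969). Fosl1, at 2 to 4 counts per library, was below MCAO 5 and 6 but not below MCAO 4, which had 1 count. Its fitted log2 fold change with no filter was -3.53 (edgeR adjusted p = 0.0676). It was called lower by DESeq2, at -3.60 (DESeq2 adjusted p = 0.0173), and by edgeR without MCAO 4, at -4.11 (edgeR adjusted p = 0.00435). The fit without MCAO 4 kept only the MCAO libraries where Fosl1 was high, so that call adds no support.

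The third comparison set hypidone after MCAO against control. No member was called, and 0% of all tested genes were called higher and 0% lower. At an unadjusted p under 0.05 there were 131 of 14756 genes and 0 members. DESeq2 called 1 gene of the whole table, higher with hypidone, and limma called 0. Atf3 had a log2 fold change of -0.09 ± 0.48, Jund of 0.13 ± 0.24 and Fosl2 of 0.16 ± 0.41. Junb was at 0.31 ± 0.50, Batf3 at 0.47 ± 0.72, Fos at 0.54 ± 1.08, Jun at -0.54 ± 0.40 and Fosb at 0.60 ± 1.08. For the 9 tested members the edgeR adjusted p was 0.9999, and the median log2 fold change was 0.31 against -0.0065 over all tested genes. Maff was the member with the lowest unadjusted p, 0.148 in edgeR's test. Its 3 hypidone libraries, at 1.71 to 2.20 CPM, all lay above the controls at 0.99 to 1.5 CPM, as did 3.86% of all tested genes. Its log2 fold change of 0.64 ± 0.41 was not called.

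**Figure D5:**
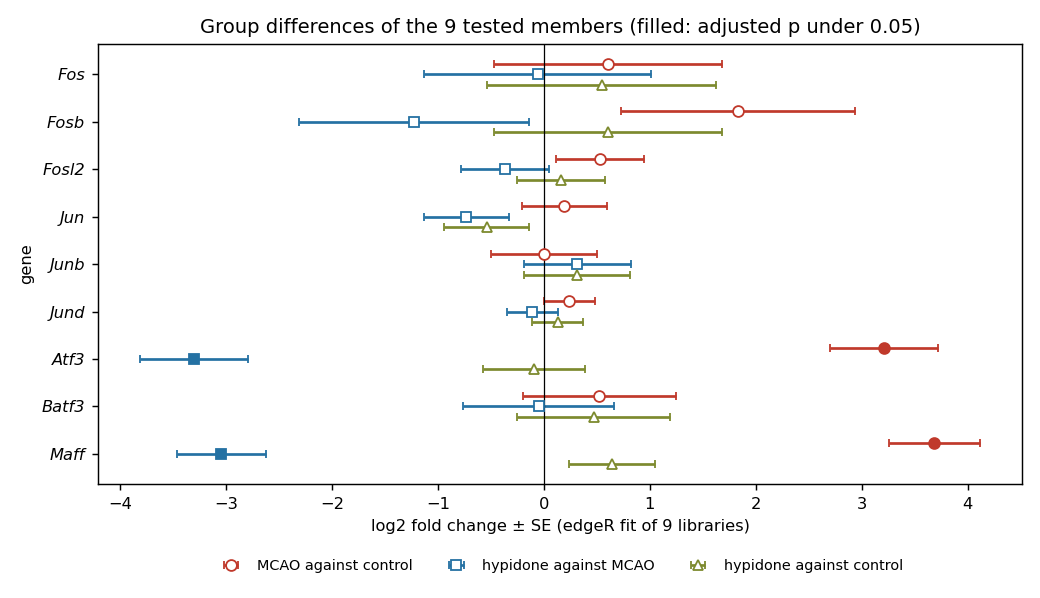
Log2 fold change ± SE (horizontal) of the 9 tested members (vertical) in the 3 comparisons, from 1 edgeR fit of 9 libraries; filled points have an adjusted p under 0.05. Atf3 (3.21 and -3.30) and Maff (3.69 and -3.04) are the filled points, and no member is filled for hypidone against control.

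Across the 9 libraries Fos, Fosb and Junb followed each other, and so did Atf3 and Maff, given here as a description of 9 points that share their group differences and MCAO 6. The Pearson r of log2 CPM was 0.986 between Fos and Junb, 0.888 between Fos and Fosb and 0.900 between Fosb and Junb. It was 0.923 between Atf3 and Maff and 0.809 between Fosl2 and Jun. Between these sets it was -0.118 for Fos and Atf3 and -0.114 for Fos and Maff, and Jun was at 0.109 with Fos and 0.618 with Atf3. Jund was at 0.515 with Fos and 0.183 with Atf3, and Batf3 at -0.273 to 0.301 with the other tested members. MCAO 6 was the highest of 9 libraries for 8 of the 10 members, MCAO 5 for Fosl1 and hypidone 7 for Batf3.

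The genes nearest to Fos over the 9 libraries, among all tested genes whose log2 CPM averaged 1 or more, were Junb (r = 0.986), Golm2 (r = 0.980) and Npas4 (r = 0.959). Golm2 moved little, from 107 to 122 CPM. Npas4, an activity-induced factor of neurons, had 25.8, 7.58 and 17.5 CPM in controls, 0.626, 0.573 and 87.2 CPM in MCAO 4, 5 and 6, and 27.3, 26.1 and 15.6 CPM with hypidone. Nearest to Atf3 were Lfng (r = 0.996), Ap1g2 (r = 0.989) and Gna13 (r = 0.988). Lfng, a glycosyltransferase that modifies Notch, had 14.2 to 16.8 CPM in the 6 control and hypidone libraries. In MCAO 4, 5 and 6 it had 23.6, 29.7 and 32.7 CPM. Gna13, a G protein alpha subunit, had 51.1 to 68.4 CPM in those 6 libraries and 109, 147 and 175 CPM in MCAO 4, 5 and 6. Near to Jund were Rcc1l (r = 0.937) and Pygm (r = 0.934).

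The counts of the 5 gene lists that follow stand against 10.6% higher and 9.81% lower over all tested genes for MCAO against control, and 8.23% higher and 8.28% lower for hypidone against MCAO. Other basic leucine zipper genes that can pair with the members were read as a list of 20, of which 19 were tested. With MCAO 4 were called higher and 2 lower against control, and 13 were not called. Mafk, a small MAF gene like Maff, had 7.76, 9.83 and 6.85 CPM in controls and 18, 19.4 and 31.4 CPM in MCAO 4, 5 and 6 (log2 fold change 1.49 ± 0.24, edgeR adjusted p = 0.00655). Bach1, a repressor that binds DNA with small MAF proteins, had 8.02, 9.83 and 8.23 CPM in controls and 16.7, 31.5 and 28.3 CPM with MCAO (log2 fold change 1.55 ± 0.27, edgeR adjusted p = 0.00755). Both groups of 3 lay apart. Lower were Atf4, the effector of the integrated stress response (-0.79 ± 0.22, edgeR adjusted p = 0.0340), and Mafg, the remaining small MAF gene (-0.49 ± 0.14, edgeR adjusted p = 0.0357). Batf was also called higher, at 3.02 ± 0.89 (edgeR adjusted p = 0.0422). Without any 1 control or hypidone library, or without MCAO 5 or 6, only 2 were called higher, Mafk and Bach1. The same held with only the groups compared and with limma on FPKM, and 5 were called higher without MCAO 4. The calls of Atf4 and Mafg were lost without control 4, without control 6 and without any 1 hypidone library, that of Atf4 also without MCAO 4 or 5 and that of Mafg without MCAO 6. Scaling by library totals also ended the calls of Atf4 and Mafg. With hypidone against MCAO, Mafk (-1.53 ± 0.24, edgeR adjusted p = 0.00725) and Bach1 (-1.52 ± 0.27, edgeR adjusted p = 0.00985) were lower. Atf4 (0.87 ± 0.22, edgeR adjusted p = 0.0283) and Mafg (0.48 ± 0.14, edgeR adjusted p = 0.0436) were higher, with neither call left when any 1 hypidone library was left out, nor that of Mafg without control 4 or 6 or MCAO 4 or 6. Without MCAO 4 the list had 1 called higher and 5 lower in this comparison.

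Among 20 genes for the kinases and serum response factor partners that act on AP-1, all tested, 2 were called higher and 1 lower with MCAO. These shares are no larger than those over all tested genes, so the list did not stand out, and the fit of only the groups compared called 0. Map2k3, a kinase of the p38 branch, had a log2 fold change of 0.91 ± 0.21 (edgeR adjusted p = 0.0194). For Mapk3, which encodes ERK1, it was 0.74 ± 0.20 (edgeR adjusted p = 0.0336). Mapk8, which encodes JNK1, a kinase of JUN, was lower at -0.57 ± 0.15 (edgeR adjusted p = 0.0295). With hypidone against MCAO, Mapk8 was higher at 0.62 ± 0.15 (edgeR adjusted p = 0.0252) and Mapk3 lower at -0.77 ± 0.20 (edgeR adjusted p = 0.0332). No gene of the list was called for MCAO against control without control 4, control 6 or MCAO 6, and none for hypidone against MCAO without MCAO 6 or any 1 hypidone library. Without MCAO 4 the counts were 1 higher and 6 lower in the first comparison and 6 higher and 1 lower in the second, and without control 5 they were 2 and 3, then 4 and 1. Mapk3 also lost its call in the first comparison without MCAO 4 or any 1 hypidone library and in the second without control 4 or MCAO 4, and Mapk8 in the first without MCAO 5 or hypidone 7. The median log2 fold changes of the list were -0.12 and 0.10 in the 2 comparisons.

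Genes described as AP-1 targets, mainly proteases, protease inhibitors and adhesion genes, were read as a list of 20, of which 16 were tested. With MCAO 9 of 16 were called higher and 0 lower, with a median log2 fold change of 1.67. Plaur, the urokinase receptor gene, had 0.862, 0.597 and 1.71 CPM in controls and 6.54, 8.86 and 27.2 CPM with MCAO (log2 fold change 3.75 ± 0.62, edgeR adjusted p = 0.00698). Ccl2, a chemokine for monocytes, had 0, 0 and 1 counts in controls and 9, 76 and 138 in MCAO 4, 5 and 6 (edgeR adjusted p = 0.0107), with a fitted fold that depends on the prior count. Low counts removed Ccl2 from the fit of only the groups compared and under the filter on CPM, so it has no value there. Timp1, Cd44, Ezr, Mmp14, Hmox1 and Mmp9 were also called. The count was 4 without MCAO 6 or without control 6, 6 without control 4 or MCAO 5, and 11 without MCAO 4. It was 2 of 14 in a fit of only the groups compared, 5 with limma on FPKM and 12 with DESeq2. The summed level of the 20 genes was 283.4, 768.5 and 534 CPM in MCAO 4, 5 and 6, highest in the library with the most macrophage marker RNA, whose part was not tested.

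With hypidone against MCAO, 4 of the 16 were called lower and 1 higher, with a median of -1.31. Plaur stood at 1.38, 1.42 and 0.967 CPM with hypidone (log2 fold change -3.50 ± 0.61, edgeR adjusted p = 0.00985), below every MCAO library. Ezr and Cd44 were also called lower. Penk, the proenkephalin gene of striatal neurons, was higher (1.3 ± 0.32, edgeR adjusted p = 0.0256). Without hypidone 8 no gene of the list was called, without hypidone 7 the counts were 0 higher and 2 lower, without hypidone 2 they were 1 and 1, and without MCAO 6 they were 0 and 2. Without MCAO 4 they were 1 higher and 9 lower, and with DESeq2 1 and 10.

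Genes tied to JUN and ATF3 in injured neurons were read as a list of 17, of which 14 were tested. With MCAO 4 were called higher and 1 lower, with a median log2 fold change of 0.42. Ecel1, an endopeptidase gene of damaged neurons, had 1.28, 2.74 and 1.65 CPM in controls and 11, 14.5 and 34.1 CPM in MCAO 4, 5 and 6 (log2 fold change 3.39 ± 0.50, edgeR adjusted p = 0.00516). Bcl2l11, which encodes the death protein BIM, had 3.35, 4.10 and 4.63 CPM in controls and 7.48, 20.8 and 13.2 CPM with MCAO (1.78 ± 0.34, edgeR adjusted p = 0.0107). Klf6 was at 1.23 ± 0.30 (edgeR adjusted p = 0.0237), and Hspb1 was the fourth. Gap43, a growth cone gene that rises when peripheral axons regrow, was lower (-0.82 ± 0.17, edgeR adjusted p = 0.0126), at 79.7 to 122 CPM against 166 to 193 in controls. With hypidone against MCAO, Ecel1 was lower (-3.05 ± 0.49, edgeR adjusted p = 0.00737), as was Bcl2l11 (-1.24 ± 0.34, edgeR adjusted p = 0.0377). Gap43 (0.74 ± 0.17, edgeR adjusted p = 0.0207) and Tubb3, a neuronal tubulin gene (0.89 ± 0.25, edgeR adjusted p = 0.0420), were higher. Here the median was -0.70. Without MCAO 6 the counts were 2 higher and 1 lower for MCAO against control and 0 higher and 1 lower for hypidone against MCAO, and without control 6 they were 2 and 0 for MCAO against control. Without any 1 hypidone library they were 0 and 1 for hypidone against MCAO. Without MCAO 4 the counts were 7 and 2 in the first comparison and 3 and 7 in the second, and without control 5 they were 5 and 3, then 3 and 6. Klf6 was lost without control 6 or MCAO 6, and Gap43 in the first comparison without control 6. In the second, Tubb3 and Bcl2l11 were also lost without control 4 or 6, and Bcl2l11 without MCAO 5.

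Other immediate early genes, a list of 19 that were all tested, set Fos, Fosb and Junb beside genes with the same kind of control. With MCAO 3 were called higher and 2 lower, with a median log2 fold change of -0.75. Arc, a synaptic plasticity gene, had 571, 177 and 528 CPM in controls and 15.4, 29.9 and 74.8 CPM in MCAO 4, 5 and 6 (log2 fold change -3.41 ± 0.62, edgeR adjusted p = 0.00914). Bdnf, a neurotrophin gene, had 32.8, 48.9 and 30.5 CPM in controls and 3.61, 3.36 and 11.1 CPM with MCAO (-2.63 ± 0.46, edgeR adjusted p = 0.00780). In MCAO 6, therefore, Fos, Fosb and Npas4 were above all other libraries while Arc and Bdnf were below all controls. Called higher were Klf4 (1.87 ± 0.41, edgeR adjusted p = 0.0171), Ccn1, in the list under its older symbol Cyr61 (2.66 ± 0.73, edgeR adjusted p = 0.0338), and Ier3 (1.42 ± 0.40, edgeR adjusted p = 0.0355), genes that many non-neuronal cells also induce. The call of Ccn1 was also lost without control 5 or any 1 hypidone library, and that of Ier3 without MCAO 5 or any 1 hypidone library. Without MCAO 6 the counts were 0 higher and 9 lower, and without control 4 or control 6 they were 0 and 2. With hypidone against MCAO, 4 were called higher and 0 lower, with a median of 1.17. Arc at 675, 536 and 437 CPM (3.78 ± 0.63, edgeR adjusted p = 0.00859) and Bdnf at 45.9, 35.2 and 30.6 CPM (2.63 ± 0.46, edgeR adjusted p = 0.00952) lay above every MCAO library. Egr3 (1.28 ± 0.27, edgeR adjusted p = 0.0169) and Egr4 (2.16 ± 0.61, edgeR adjusted p = 0.0432), zinc finger factors of active neurons, were the others. Without MCAO 6 the counts were 9 higher and 0 lower, and without hypidone 2 or hypidone 7 they were 2 and 0. Without control 5 they were 2 higher and 5 lower for MCAO against control, and 6 and 1 for hypidone against MCAO. No gene of these 5 lists was called for hypidone against control.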

How the data were processed

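Total RNA of 9 mouse brain samples was extracted with TRIzol and turned into libraries with a VAHTS Universal V6 kit, as the labels' protocols say. The authors deposited 3 kinds of value: raw counts for each gene symbol, FPKM, and the fold (ratio) and q-value of each comparison they made. Per the submitters' processing notes, the build mm10 and DESeq2 were used, with no role or version given. The sources used here do not name the aligner, the counting tool or the strand setting, and reads shared by overlapping genes may have been split between them.

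Counts were fitted with edgeR 4.0.16 in R 4.3.3. filterByExpr kept 14756 of 18138 genes, libraries were TMM-scaled, and all 9 entered 1 quasi-likelihood fit with 6 residual degrees of freedom. Tests were two-sided F tests with Benjamini-Hochberg adjustment over all tested genes at 0.05. The SE was taken as the absolute log2 fold change over the square root of F. Members, lists and named genes were chosen with earlier results of these data known. From each list that is not of cell type markers, up to 3 rising and 2 falling called genes with the lowest p were named per comparison, and for Fos, Atf3 and Jund the 3 genes nearest in log2 CPM (prior count 2). Batf, Timp1, Cd44, Ezr, Mmp14, Hmox1, Mmp9, Hspb1, Egr4 and the genes of the closing observations were chosen once their values had been seen. A few genes within this rule are not reported here. Positions are from GENCODE M21. The fit was tested on simulated data.

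Alternatives were DESeq2 size factors, library totals, no filter, a CPM of at least 1 in 3 libraries, DESeq2 1.42.0, limma 3.58.1 (voom with quality weights, and log2 of FPKM plus a pseudocount of 1), only the groups compared, a replicate block for control and MCAO, and leaving out each library. The same alternatives for genes and counts of the other lists were added after seeing the data.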

Additional observations from a re-analysis of the deposited data

How the results depend on the processing

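Atf3 and Maff kept their calls in both comparisons with MCAO under all alternatives except the replicate block. Control and MCAO share title numbers, and deviations of same-numbered libraries correlated at 0.118, 0.123 and -0.0421. Controls 4 and 5 correlated best with the MCAO library of the same number, and control 6 with MCAO 4 (0.124). With 3 libraries per group, these correlations cannot decide whether the numbers pair samples. With the replicate block 0 members were called, and 0 genes in all, with Atf3 at 3.01 and Maff at 3.51 (edgeR adjusted p = 0.0775 each), Fos at -0.77 and Fosb at -0.18. Voom with quality weights called 6 members in each of the comparisons with MCAO. DESeq2 called 3 in each, adding Fosl1 to Atf3 and Maff, and edgeR with no filter 3 for MCAO against control. Leaving out 1 library gave 2 to 4 members for MCAO against control and 2 to 5 for hypidone against MCAO, and no alternative called a member for hypidone against control. The cause of these differences was not tested.

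Other log2 fold changes crossed 0. For MCAO against control these were Fos on FPKM (-0.61), and Junb with DESeq2 size factors (0.0085), library totals (0.054), the CPM filter (0.0032), DESeq2 (0.0064) and voom (0.64). With 1 library left out, Fos ran from -2.40 to 1.14, Fosb from -1.52 to 2.39, Jun from -0.18 to 0.72, Junb from -0.97 to 0.32 and Jund from -0.031 to 0.51. For hypidone against MCAO these were Fos (1.23) and Fosb (0.16) on FPKM, and Junb (-0.46) and Batf3 (0.48) with voom. With 1 library left out, Fos ran from -0.60 to 2.94, Fosb from -1.78 to 2.12, Fosl2 from -0.66 to 0.12, Junb from -0.0084 to 1.28, Jund from -0.38 to 0.16 and Batf3 from -0.45 to 0.31. For hypidone against control, Atf3 was 0.15 with voom, and with 1 library left out Fosl2 ran from -0.12 to 0.54 and Atf3 from -0.33 to 0.11.

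Over all genes, MCAO against control had 1567 called higher and 1448 lower. The counts were 2409 higher with DESeq2, 3645 and 3783 with voom, 345 and 337 in a fit of only these groups, and 480 to 2357 higher with 1 library left out, with as few as 594 lower. Hypidone against MCAO had 1215 higher and 1222 lower, against 1843 and 2201 with DESeq2, 3916 and 3715 with voom, and as few as 315 and 233 with 1 library left out. Depth limited Fosl1 (148 counts over 9 libraries) and Batf3 (177).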

Other observations

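Among the listed genes that the filter on low counts removed, Sprr1a and Mmp12 were near 0 outside MCAO 5 and MCAO 6, as Fosl1 was. Sprr1a, a gene that injured peripheral neurons switch on, had 149 counts in MCAO 5 and 964 in MCAO 6, against 7 in MCAO 4, 0 to 2 in controls and 1 to 6 with hypidone. Mmp12, a macrophage elastase gene, had 191 and 72 counts in MCAO 5 and MCAO 6, 7 in MCAO 4, 0 in each control and 2 to 8 with hypidone. Sprr1a was thus higher in MCAO 6 and Mmp12 in MCAO 5, the library with the most macrophage marker RNA. Neither gene has a value in the main test.

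Egr1, a zinc finger factor induced by neuronal activity, stood at 576.2, 192.6 and 541.8 CPM in controls, 36.0, 43.1 and 289.6 CPM in MCAO 4, 5 and 6, and 863.9, 652.0 and 493.6 CPM with hypidone. MCAO 6 was the highest MCAO library for it, as for Fos, but was not above all libraries. Its level lay above control 5 alone among the controls, and below controls 4 and 6 and every hypidone library.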
